A study of Homo sapiens with 16 samples.

Results

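The response of NT2/D1 cells to the microRNA MIR9-2-5p was described across all genes, from the 8 of the 16 libraries of the series that came from this line. NT2/D1 (labelled NTERA-2) is 1 line of embryonal carcinoma, the stem cell component of non-seminomatous testicular germ cell tumours. Cells were transfected with a MIR9-2-5p mimic, a synthetic copy of the mature microRNA, in 4 libraries, or with a scrambled mimic in 4 libraries, and all were collected after 3 days. The other 8 libraries came from TCam-2, a seminoma line that received the same mimics, and are used only where the responses are set against each other. RNA was measured as reads per gene, given below as CPM, a read count scaled to the size of its library, and 17586 of 58735 genes passed the filter on low counts.

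Total counts per library ranged from 18374393 to 22427162 with MIR9-2-5p and from 15833279 to 21390865 with the scrambled control. The share of counts from mitochondrial transcripts was 4.39 ± 0.18% in MIR9-2-5p libraries and 5.10 ± 0.34% in scrambled libraries (SD, n = 4 each), and their part in the results was not tested. A gene was called where the quasi-likelihood test of edgeR gave a Benjamini-Hochberg adjusted p under 0.05. By that rule 5312 genes were higher (30.2% of those tested) and 5119 were lower (29.1%), and 52% of the genes had no overlap of CPM between the groups. The called genes were thus the majority, with a median change of 0.70 on the log2 scale, and counts of called genes are read below against those shares. Past a fold of 1.5, tested as such, 2192 genes were higher (12.5%) and 1715 were lower (9.75%).

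The line was checked against markers of the cell types it could be or hold. All 9 embryonal carcinoma markers were detected, and all 9 were lower with MIR9-2-5p, with a summed level of 1613 to 1680.0 CPM with MIR9-2-5p and 5857 to 5946 CPM with the scrambled control. All 9 also passed the low-count filter in TCam-2, so their detection alone does not tell embryonal carcinoma from seminoma. PRDM14, a repressor that guards naive pluripotency, had 29.8, 24.6, 29.8 and 25.9 CPM with MIR9-2-5p, against 124.6, 119.000, 117.7 and 115.5 CPM with the scrambled control (log2 fold change -2.11, SE 0.08, edgeR adjusted p = 1.49e-12). Of 8 seminoma markers 5 were tested, with 2 higher (TFAP2C and PRDM1), 2 lower (PDPN and DMRT1) and KIT not called, and a summed level of 129.6 to 136.9 CPM with MIR9-2-5p and 138.6 to 155.6 CPM with the scrambled control. The defining seminoma marker SOX17 was at 0 counts over the MIR9-2-5p libraries and 2 counts over the scrambled ones. The 9 blood cell markers were all under the filter. Among 10 markers of fibroblasts or feeder cells the 8 that were tested included 6 higher and 2 lower genes, with a summed level of 638.8 to 715.02 CPM with MIR9-2-5p and 543.5 to 629.5 CPM with the scrambled control. The defining fibroblast marker DCN was at 0 counts in every library, while LUM and COL3A1 were among the higher genes and PDGFRA and THY1 were the 2 lower ones. Several of these markers also belong to the matrix genes below, and the part of other cell types in the results was not tested. In bulk RNA, fewer cells of a type and less RNA per cell cannot be told apart.

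MicroRNAs guide the silencing complex to messenger RNAs, mainly through pairing of the seed, the bases near the 5′ end of the microRNA, with sites in the 3′ untranslated region (UTR). The paired messages are then less translated and less stable. The microRNA miR-9 is abundant in the developing brain, where it acts on the balance between neural progenitors and neurons.

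The mature sequences are shown because their seeds define the sites below. They were taken from RefSeq on GRCh38.p14, 5′ to 3′, with bases 2 to 8 in capitals. The 5p strand is the one supplied by the mimic and the 3p strand is its partner from the MIR9-2 hairpin.
hsa-miR-9-5p: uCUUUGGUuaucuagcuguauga
hsa-miR-9-3p: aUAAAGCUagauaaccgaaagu

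The 3 genes MIR9-1, MIR9-2 and MIR9-3, on chromosomes 1, 5 and 15, give the same 5p sequence, and no other microRNA of the table had the same seed. MIR9-2 places it on the minus strand at chr5:88666902-88666924. A perfect site of 8 bases (8mer) reads ACCAAAGA in the messenger RNA, and the 7mer sites are ACCAAAG and CCAAAGA.

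Of 14239 protein-coding genes that were tested and have an annotated 3′ UTR, 744 held an 8mer in the longest one. Among these 744 genes 36.3% were lower and 31.0% were higher, with a median log2 fold change of -0.07. Of the 7468 genes with no 6-base match to the seed, 28.3% were lower and 32.8% were higher, with a median of 0.02. Of the 2916 genes with a 7mer and no 8mer 30.4% were lower and 36.0% were higher, with a median of 0.05, so that their share of lower genes lay between the other 2 classes while their share of higher genes and their median were above both. The 8mer class therefore had the larger share of lower genes, in a difference of medians that was small beside the spread of single genes. The classes also differed in 3′ UTR length, with a median of 3382.5 bases for the 8mer genes and 805 for the genes with no match. Within the third of genes with the shortest 3′ UTRs (up to 897 bases), 40.7% of 59 8mer genes and 29.6% of 4035 genes with no match were lower. No test was run on these classes, and the sites are letters in annotated transcripts, not measured binding.

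The 10 8mer genes with the largest falls are shown with their sites, since they combine a full seed match with the largest drops. Each sequence is the strand of the messenger RNA on GRCh38, with the 8mer in capitals and 14 bases before and 6 after it.
AKAP7: gctctttggtaaacACCAAAGAagtttc
BLACAT1: tcttctgtccctccACCAAAGAaccgga
COL9A1: acatctctggttgtACCAAAGAagaaat
FAM124B: ggttcttgttacaaACCAAAGAggaaca
LHFPL4: ctgagggggtgaggACCAAAGAatcaag
MYRFL: agtttggggactttACCAAAGAaaaata
NR5A2: attgtaaattgtatACCAAAGAtattag
SLC19A3: acttatttgatcttACCAAAGAagtcaa
TESK2: tgcaataagaaataACCAAAGAtgaagc
VRTN: agtaacgtttgaaaACCAAAGAaataaa

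In the same order, these windows lie at chr6:131282662-131282689 (plus strand), chr1:205435519-205435546 (minus strand), chr6:70216142-70216169 (minus strand), chr2:224378851-224378878 (minus strand), chr3:9498854-9498881 (minus strand), chr12:69958540-69958567 (plus strand), chr1:200176240-200176267 (plus strand), chr2:227686969-227686996 (minus strand), chr1:45343982-45344009 (minus strand), chr14:74359964-74359991 (plus strand), each in the 3′ UTR of the named gene.

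NR5A2 is an orphan nuclear receptor that can drive POU5F1 transcription in mouse stem cells. It had 3.84, 3.25, 3.52 and 3.08 CPM with MIR9-2-5p, against 13.9, 16.3, 15.01 and 14.4 CPM with the scrambled control (log2 fold change -2.12, SE 0.12, edgeR adjusted p = 2.54e-10). VRTN, known for its effect on vertebral number in pigs, had 28.2, 28.4, 25.9 and 26.2 CPM in MIR9-2-5p cells and 110.7, 94.2, 98.4 and 100.9 CPM in scrambled cells (log2 fold change -1.90, SE 0.08, edgeR adjusted p = 3.6e-12). AKAP7 anchors protein kinase A and had 10.98, 10.5, 12.6 and 14.1 CPM with MIR9-2-5p, against 39.9, 42.7, 46.1 and 42.2 CPM with the scrambled control (log2 fold change -1.82, SE 0.10, edgeR adjusted p = 1.54e-10). In all 3 genes the groups were far apart, at a level in MIR9-2-5p cells that was below every scrambled library. LHFPL4, an auxiliary protein of inhibitory receptors at synapses, had 9.03, 10.9, 7.12 and 8.63 CPM in MIR9-2-5p cells and 38.7, 34.7, 35.1 and 39.3 CPM in scrambled cells (log2 fold change -2.06, SE 0.12, edgeR adjusted p = 1.44e-10). SLC19A3, a thiamine transporter, had 3.79, 2.86, 2.31 and 2.84 CPM with MIR9-2-5p, against 10.2, 9.73, 9.90 and 8.69 CPM with the scrambled control (log2 fold change -1.71, SE 0.16, edgeR adjusted p = 6.75e-08). COL9A1, a chain of cartilage collagen, had 1.05, 2.53, 1.38 and 1.99 CPM in MIR9-2-5p cells and 6.39, 7.18, 7.93 and 9.01 CPM in scrambled cells (log2 fold change -2.14, SE 0.22, edgeR adjusted p = 2.66e-07). The groups did not overlap for these genes either. The remaining FAM124B, MYRFL, TESK2 and BLACAT1 had log2 fold changes of -1.75, -2.55, -1.75 and -1.71, and again no overlap. Exons of BLACAT1 overlap LEMD1 on the same strand, and those of MYRFL and TESK2 overlap PRANCR and TOE1 on the opposite strand. Counts of BLACAT1, MYRFL and TESK2 are therefore less certain. All 10 genes were selected by their fall and by a lack of overlap between the groups, so both are descriptions. Other 8mer genes rose, among them ZEB2 and INHBA, with log2 fold changes of 1.96 and 2.88.

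The programmes that changed were described with 38 lists of genes for lineages, cell adhesion, the cytoskeleton and signalling. They hold 1143 genes, of which 978 were tested. Of those 978 genes 517 were higher (52.9%, beside 30.2% of all genes tested and 33.9% of protein-coding genes) and 253 were lower (25.9%, beside 29.1% and 29.0%). The lists were chosen with results of these data known, so these shares describe the listed genes and support nothing further. Cytoskeleton genes had the smallest share of lower genes, with 96 higher and 26 lower of 164. Adhesion and matrix genes had 138 higher and 68 lower of 262, lineage genes 98 higher and 53 lower of 181, and signalling genes 218 higher and 124 lower of 433. The median log2 fold change was 0.35 over all 978 genes, beside -0.02 over all genes tested.

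**Figure D1:**
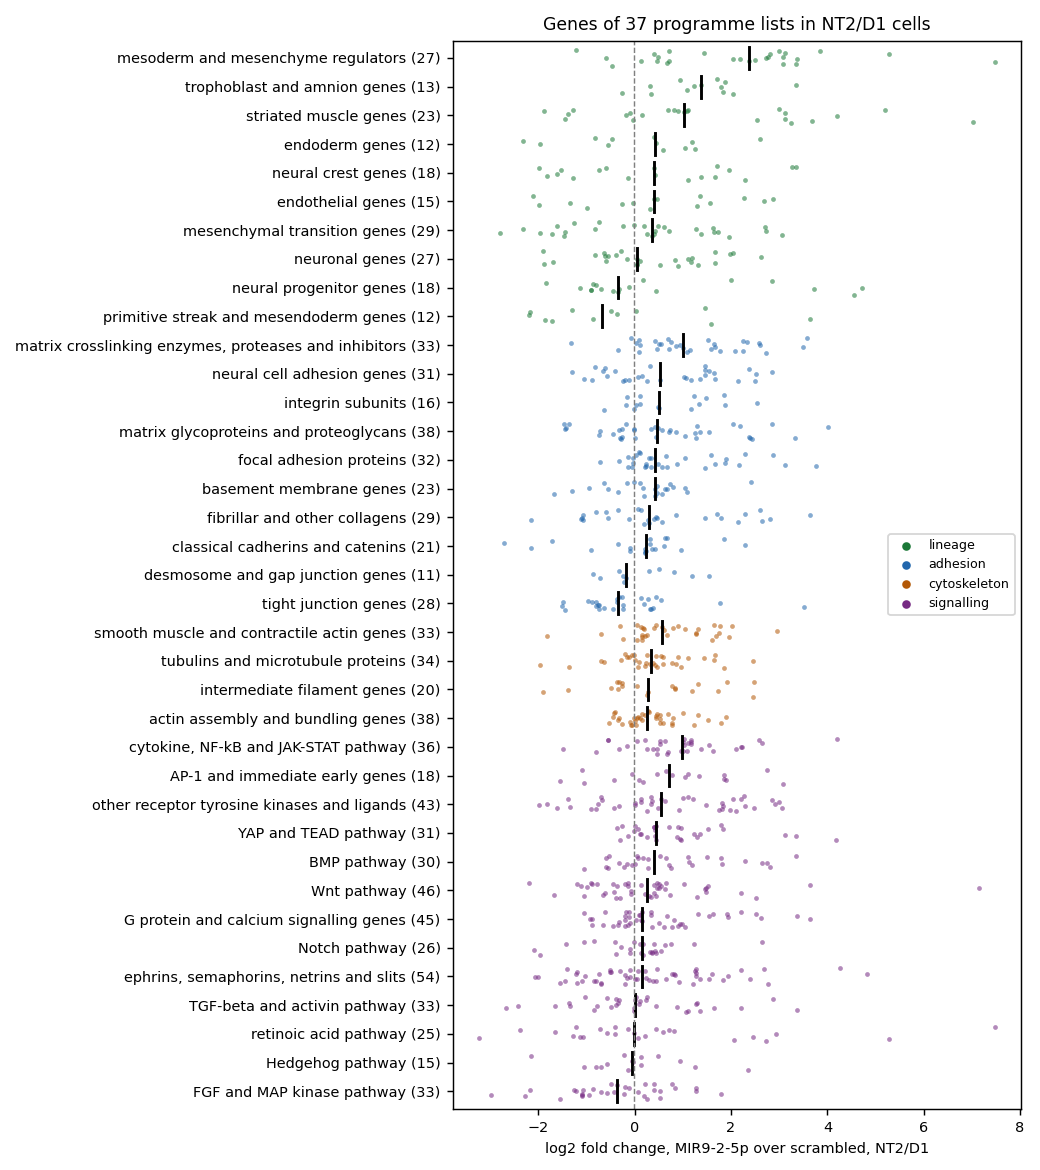
Log2 fold change of MIR9-2-5p over scrambled NT2/D1 cells (horizontal axis) for every tested gene of 37 lists (rows, with the number of tested genes in brackets), coloured by kind of programme; black bars are list medians and the dashed line is the median of all genes tested. Mesoderm and mesenchyme regulators have the highest median, 2.38, and primitive streak genes the lowest, -0.68.

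The largest single rises came from genes that were close to silent in scrambled cells. The 8 largest rises under the naming rule were TRIM63, FSTL5, CASP4, SLC28A3, NR2F2, TRIM55, RAB27B and DPF3. TRIM63 and TRIM55 encode muscle ubiquitin ligases of the sarcomere. TRIM63 had 14.4, 16.4, 13.8 and 15.5 CPM with MIR9-2-5p, against 0, 0.0624, 0 and 0.38005 CPM with the scrambled control (log2 fold change 7.02, SE 0.35, edgeR adjusted p = 3.04e-11). TRIM55 had 25.5, 26.9, 27.5 and 31.1 CPM in MIR9-2-5p cells and 0.576, 1.248, 0.610 and 0.652 CPM in scrambled cells (log2 fold change 5.19, SE 0.17, edgeR adjusted p = 3.21e-13). NR2F2, the orphan nuclear receptor COUP-TFII, which is expressed in mesenchyme of many developing organs, had 70.6, 76.1, 64.8 and 72.3 CPM with MIR9-2-5p, against 1.84, 1.12, 2.25 and 1.90 CPM with the scrambled control (log2 fold change 5.29, SE 0.14, edgeR adjusted p = 2.99e-14). Its level made it by far the most abundant of the 8 in MIR9-2-5p cells in CPM, a unit that is not scaled to gene length. FSTL5, a secreted follistatin-like protein, had 4.89, 7.11, 7.16 and 6.64 CPM in MIR9-2-5p cells and 0.0576, 0.0624, 0.141 and 0 CPM in scrambled cells (log2 fold change 6.43, SE 0.36, edgeR adjusted p = 1.33e-10). CASP4, an inflammatory caspase that senses bacterial lipopolysaccharide, had 6.74, 6.995, 7.56 and 7.21 CPM with MIR9-2-5p, against 0.0576, 0, 0.375 and 0 CPM with the scrambled control (log2 fold change 5.79, SE 0.40, edgeR adjusted p = 1.85e-09). SLC28A3, a nucleoside transporter, had 6.19, 6.89, 8.01 and 8.58 CPM in MIR9-2-5p cells and 0.346, 0.125, 0.0469 and 0.0543 CPM in scrambled cells (log2 fold change 5.69, SE 0.33, edgeR adjusted p = 1.96e-10). No scrambled library reached any MIR9-2-5p library for these genes, which the naming rule required. The scrambled levels rest on few counts, so the size of each fold is imprecise. RAB27B, a GTPase of vesicle secretion, and DPF3, a subunit of the BAF chromatin remodelling complex first described in heart and skeletal muscle, had log2 fold changes of 4.95 and 4.81.

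The 8 largest falls were MYH2, LCK, GLB1L3, TNMD, HSD11B2, DPPA3, HHLA1 and FGF19. HHLA1, a gene transcribed from an endogenous retroviral promoter, had 16.6, 15.4, 16.02 and 15.1 CPM with MIR9-2-5p, against 138.2, 147.8, 141.7 and 124.5 CPM with the scrambled control (log2 fold change -3.13, SE 0.08, edgeR adjusted p = 3.07e-14). FGF19, a secreted fibroblast growth factor, had 7.19, 9.80, 8.05 and 6.49 CPM in MIR9-2-5p cells and 65.97, 53.8, 63.2 and 66.4 CPM in scrambled cells (log2 fold change -2.99, SE 0.12, edgeR adjusted p = 2.17e-12). These were the most abundant of the 8 genes in CPM in scrambled cells. HSD11B2, which inactivates cortisol, had 0.998, 1.65, 0.712 and 1.33 CPM with MIR9-2-5p, against 12.6, 8.55, 10.6 and 10.5 CPM with the scrambled control (log2 fold change -3.19, SE 0.21, edgeR adjusted p = 1.11e-09). LCK, a kinase best known from T cells, had 0.499, 0.551, 0.4005 and 0.664 CPM in MIR9-2-5p cells and 4.55, 5.68, 5.30 and 6.03 CPM in scrambled cells (log2 fold change -3.34, SE 0.22, edgeR adjusted p = 1.43e-09). MYH2, a fast skeletal myosin heavy chain, had 0.898, 0.936, 1.74 and 0.332 CPM with MIR9-2-5p, against 11.1, 12.9, 9.90 and 11.999 CPM with the scrambled control (log2 fold change -3.53, SE 0.26, edgeR adjusted p = 5.44e-09). The groups did not overlap in any of these genes, as the naming rule required, and every MIR9-2-5p library was under 2 CPM for HSD11B2, LCK and MYH2. GLB1L3, TNMD and DPPA3 had log2 fold changes of -3.29, -3.20 and -3.14.

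Mesoderm and mesenchyme regulators were the lineage list with the highest median. These transcription factors pattern heart, limb, kidney and connective tissue. Of 36 listed genes 27 were tested, and of those 22 were higher, 3 were lower and 2 were not called, with a median log2 fold change of 2.38. Members near silent in scrambled cells could be tested only where they rose, so this tally favours rises. Past a fold of 1.5 there were 17 higher and 1 lower, and with genes averaging 100 counts or more 11 higher and 2 lower. HAND1, a factor of heart, lateral mesoderm and trophoblast, had 22.4, 25.6, 19.4 and 22.8 CPM with MIR9-2-5p, against 2.25, 1.75, 2.53 and 2.28 CPM with the scrambled control (log2 fold change 3.34, SE 0.14, edgeR adjusted p = 3.82e-12). TBX18, a factor of the epicardium and sinus node, had 13.8, 12.3, 14.3 and 14.03 CPM in MIR9-2-5p cells and 1.04, 1.31, 1.74 and 1.14 CPM in scrambled cells (log2 fold change 3.36, SE 0.16, edgeR adjusted p = 2.12e-11). Both were low in all scrambled libraries and clearly higher in all MIR9-2-5p libraries. The other called members spanned several organs, with log2 fold changes of 3.84 for FOXF1, 3.13 for FOXC2, 3.08 for PRRX1, 3.07 for TCF21, 2.99 for TBX3, 2.81 for RUNX1, 2.76 for RUNX2, 2.50 for OSR1, 2.19 for WT1 and 2.03 for ISL1, which were singled out after their values were seen. NR2F1, the sister gene of NR2F2, was also singled out in that way, with 95 counts over the MIR9-2-5p libraries and 0 over the scrambled ones, which is at least 28.3-fold higher when 3 counts over the group are taken as the floor. The number of lower members was 1 without MIR9-2-5p replicate 1 or 3 or without scrambled replicate 1 or 4. TWIST1 had 8.98, 13.3, 6.36 and 10.9 CPM in MIR9-2-5p cells and 8.35, 4.62, 7.93 and 8.96 CPM in scrambled cells, which overlapped, and was not called (log2 fold change 0.39, SE 0.22, edgeR adjusted p = 0.136), but passed without MIR9-2-5p replicate 3 (0.56, adjusted p = 0.0196).

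Trophoblast and amnion genes were higher in 12 of 13 tested and lower in none, with a median log2 fold change of 1.37. Without scrambled replicate 2, 1 was lower. Of the 23 listed genes 10 were under the filter, among them the trophectoderm factor CDX2 with 4 counts over the MIR9-2-5p libraries and 2 over the scrambled ones. Here too, members near silent in scrambled cells could be tested only where they rose, so the tally favours rises. GATA3, a trophectoderm and amnion factor that also acts in T cells and ectoderm, had 23.9, 25.5, 23.4 and 24.8 CPM with MIR9-2-5p, against 8.01, 5.24, 5.82 and 8.20 CPM with the scrambled control (log2 fold change 1.84, SE 0.13, edgeR adjusted p = 2.98e-09). TFAP2A, a factor of surface ectoderm, trophoblast and neural crest, had 6.04, 4.68, 5.03 and 3.89 CPM in MIR9-2-5p cells and 2.07, 1.37, 0.797 and 1.85 CPM in scrambled cells (log2 fold change 1.70, SE 0.25, edgeR adjusted p = 1.55e-05). PGF, a placental growth factor of the VEGF family, had 10.9, 13.5, 10.4 and 10.4 CPM with MIR9-2-5p, against 3.11, 3.12, 2.81 and 3.37 CPM with the scrambled control (log2 fold change 1.86, SE 0.14, edgeR adjusted p = 6.64e-09). The higher members thus included genes that other lineages also use, and the most specific trophoblast genes CGA, CGB5, ERVW-1 and GCM1 were not among those tested.

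Striated muscle genes showed both directions. Of 40 listed genes 23 were tested, with 15 higher and 4 lower and a median of 1.02. As for the lists above, members near silent in scrambled cells could be tested only where they rose, so the tally favours rises. The skeletal myosin MYH2, with a log2 fold change of -3.53, was not on this list. Higher members were the ubiquitin ligases TRIM63 and TRIM55 above, and MYL1, a myosin light chain, CRYAB, a small heat shock protein of muscle, and XIRP1, an actin-binding protein, at log2 fold changes of 3.68, 4.19 and 3.24, named after their values were seen. TTN, the giant spring of the sarcomere, had 26.1, 16.5, 23.7 and 18.2 CPM with MIR9-2-5p, against 59.97, 66.7, 56.1 and 49.4 CPM with the scrambled control (log2 fold change -1.455, SE 0.13, edgeR adjusted p = 7.09e-08). Exons of TTN overlap CCDC141 on the same strand. TNNT1, slow skeletal troponin T, had 2.35, 4.74, 3.56 and 4.12 CPM in MIR9-2-5p cells and 12.6, 14.3, 12.9 and 15.04 CPM in scrambled cells (log2 fold change -1.89, SE 0.17, edgeR adjusted p = 4.15e-08). DES, the muscle intermediate filament desmin, had 0.699, 0.936, 0.489 and 1.23 CPM with MIR9-2-5p, against 2.02, 2.68, 1.454 and 2.66 CPM with the scrambled control (log2 fold change -1.38, SE 0.32, edgeR adjusted p = 0.00123). Core structural genes of the sarcomere and its anchors therefore stood among both the higher and the lower members. The master regulator MYOD1 had 0 counts over the MIR9-2-5p libraries and 1 count over the scrambled ones.

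Genes of the primitive streak, the transient site where mesoderm and endoderm form, moved in both directions, and several were near absent. TBXT, the defining factor of the streak, had 1 count over the MIR9-2-5p libraries and 6 over the scrambled ones, and MIXL1 and EOMES were at about 1 CPM or less. Of 12 tested streak genes 3 were higher and 5 were lower (median -0.68), and with genes averaging 100 counts or more 0 were higher and 3 were lower. FOXH1, the DNA-binding partner of the SMADs downstream of NODAL, had 5.59, 6.17, 5.47 and 6.40 CPM with MIR9-2-5p, against 31.6, 20.2, 25.2 and 31.5 CPM with the scrambled control (log2 fold change -2.20, SE 0.14, edgeR adjusted p = 8.21e-10), and its exons overlap KIFC2 on the opposite strand. FGF4, an autocrine growth factor of pluripotent cells, had 10.4, 10.5, 11.1 and 9.67 CPM in MIR9-2-5p cells and 44.7, 44.7, 49.4 and 49.7 CPM in scrambled cells (log2 fold change -2.18, SE 0.09, edgeR adjusted p = 3.29e-12). EOMES had 0.349, 0.165, 0.133 and 0.616 CPM with MIR9-2-5p, against 0.922, 1.19, 0.938 and 1.19 CPM with the scrambled control (log2 fold change -1.71, SE 0.43, edgeR adjusted p = 0.00245). The 3 higher members were WNT3, MESP1 and DKK1. WNT3 had 3.74, 3.86, 3.83 and 3.46 CPM in MIR9-2-5p cells and 1.09, 1.498, 1.31 and 1.52 CPM in scrambled cells (log2 fold change 1.453, SE 0.20, edgeR adjusted p = 6.91e-06). MESP1, a factor of early cardiac mesoderm, and DKK1, a secreted Wnt inhibitor, had log2 fold changes of 1.59 and 3.65, with DKK1 at 175 counts over the MIR9-2-5p libraries and 12 over the scrambled ones; both were named after their values were seen.

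The endoderm list had 5 higher and 3 lower of 12 tested (median 0.42), so that 8 of 12 were called beside 59.3% of all genes. With genes averaging 100 counts or more 0 were higher and 2 were lower (median -2.17). GATA6, a factor of extraembryonic endoderm and heart, had 3.34, 3.75, 3.96 and 3.70 CPM with MIR9-2-5p, against 0.519, 1.06, 0.422 and 0.489 CPM with the scrambled control (log2 fold change 2.59, SE 0.27, edgeR adjusted p = 3.05e-07). FOXA3, a factor of gut endoderm, had 1.20, 2.37, 2.09 and 2.56 CPM in MIR9-2-5p cells and 10.2, 9.05, 10.98 and 10.6 CPM in scrambled cells (log2 fold change -2.31, SE 0.18, edgeR adjusted p = 1.21e-08). FOXA2 had 12 counts over the MIR9-2-5p libraries and 3 over the scrambled ones, GATA4 had 32 and 33, and AFP, a yolk sac and fetal liver protein, stayed under 1 CPM in all libraries. The call of AFP (log2 fold change 1.254, SE 0.48, edgeR adjusted p = 0.0333) was lost without MIR9-2-5p replicate 3 or 4 or scrambled replicate 2, 3 or 4 (adjusted p = 0.0599 to 0.107). Endothelial genes had 7 higher and 4 lower of 15 tested (median 0.40). The VEGF receptors KDR and FLT1 were lower, with 8.33, 6.66, 6.76 and 6.59 CPM with MIR9-2-5p, against 28.2, 32.4, 26.8 and 24.9 CPM with the scrambled control for KDR (log2 fold change -1.98, SE 0.12, edgeR adjusted p = 2.36e-10). FLI1, an ETS factor of blood vessels and blood, had 37.2, 37.9, 37.2 and 32.7 CPM in MIR9-2-5p cells and 8.07, 6.61, 7.74 and 7.71 CPM in scrambled cells (log2 fold change 2.26, SE 0.10, edgeR adjusted p = 7.74e-12).

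Neural genes did not move as a block, although miR-9 is best known from the brain. Of 30 neural progenitor genes 18 were tested, with 6 higher and 9 lower (median -0.34). DLX2, a homeobox factor of forebrain interneurons, craniofacial mesenchyme and limb, had 12.5, 14.05, 10.9 and 13.5 CPM with MIR9-2-5p, against 0.807, 0.437, 0.469 and 0.217 CPM with the scrambled control (log2 fold change 4.71, SE 0.22, edgeR adjusted p = 2e-11). PAX6, a factor of eye and cortex whose exons overlap ELP4, had 1.597, 2.20, 2.54 and 1.37 CPM in MIR9-2-5p cells and 0.173, 0.624, 0.0938 and 0.217 CPM in scrambled cells (log2 fold change 2.84, SE 0.43, edgeR adjusted p = 2.69e-05). Both were near the detection limit in scrambled cells. OTX2, a factor of the anterior epiblast and forebrain, had 45.2, 43.5, 49.7 and 46.9 CPM with MIR9-2-5p, against 83.7, 91.8, 86.4 and 87.95 CPM with the scrambled control (log2 fold change -0.92, SE 0.07, edgeR adjusted p = 1.25e-08). ZIC2, a zinc finger factor of epiblast and neural plate, had 80.1, 82.1, 76.8 and 82.6 CPM in MIR9-2-5p cells and 195.5, 160.2, 166.1 and 186.8 CPM in scrambled cells (log2 fold change -1.14, SE 0.08, edgeR adjusted p = 1.37e-09). The intermediate filament nestin, NES, had 416.1, 482.01, 400.9 and 400.9 CPM with MIR9-2-5p, against 563.9, 520.7, 533.5 and 542.8 CPM with the scrambled control (log2 fold change -0.35, SE 0.07, edgeR adjusted p = 0.000394). The 3 lower genes given here were thus well above the detection limit in scrambled cells. SOX3 had 25.9, 27.1, 24.5 and 29.3 CPM in MIR9-2-5p cells and 36.1, 18.97, 26.1 and 34.4 CPM in scrambled cells, and HES1, a Notch effector that miR-9 targets in mouse neural progenitors, had 36.9, 42.9, 38.3 and 40.1 CPM with MIR9-2-5p, against 36.4, 31.5, 32.04 and 39.5 CPM with the scrambled control. Neither was called (log2 fold change -0.11, SE 0.15, edgeR adjusted p = 0.546 and log2 fold change 0.18, SE 0.09, edgeR adjusted p = 0.0975), and their groups overlapped. SOX3 passed without scrambled replicate 2 (-0.265, adjusted p = 0.0392) and HES1 without scrambled replicate 4 (0.25, adjusted p = 0.0318).

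Of 27 tested neuronal genes 12 were higher and 10 were lower (median 0.06), and with genes averaging 100 counts or more 6 and 5. TUBB3, the neuronal beta-tubulin, had 7.98, 9.20, 6.14 and 5.74 CPM with MIR9-2-5p, against 2.36, 1.93, 2.39 and 2.44 CPM with the scrambled control (log2 fold change 1.66, SE 0.18, edgeR adjusted p = 7.78e-07). SNAP25, a synaptic fusion protein, had 5.64, 4.41, 6.01 and 5.69 CPM in MIR9-2-5p cells and 1.96, 1.31, 1.454 and 0.814 CPM in scrambled cells (log2 fold change 1.97, SE 0.22, edgeR adjusted p = 8.68e-07). RBFOX3, the nuclear antigen NeuN, had 4.64, 5.29, 3.65 and 3.60 CPM with MIR9-2-5p, against 15.2, 12.2, 12.9 and 15.5 CPM with the scrambled control (log2 fold change -1.71, SE 0.15, edgeR adjusted p = 2.98e-08). NEFH, the heavy neurofilament chain, had 6.04, 5.62, 5.16 and 4.22 CPM in MIR9-2-5p cells and 20.1, 18.03, 21.3 and 19.3 CPM in scrambled cells (log2 fold change -1.91, SE 0.12, edgeR adjusted p = 8.07e-10). Markers of mature neurons were therefore found in both directions, and STMN2 had only 44 counts over the MIR9-2-5p libraries and 12 over the scrambled ones. DCX, a microtubule protein of migrating neurons, had 2.99, 3.36, 3.34 and 2.28 CPM with MIR9-2-5p, against 3.92, 3.87, 5.21 and 4.56 CPM with the scrambled control (log2 fold change -0.56, SE 0.18, edgeR adjusted p = 0.0133), and its call was lost when MIR9-2-5p replicate 4 or scrambled replicate 3 was left out (adjusted p = 0.0533 and 0.056).

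Neural crest genes had 9 higher and 7 lower of 18 tested (median 0.40, but -0.03 without MIR9-2-5p replicate 2). MSX1, a homeobox target of BMP at the neural plate border, had 5.34, 6.72, 4.81 and 6.16 CPM with MIR9-2-5p, against 0.749, 0.624, 0.751 and 0.109 CPM with the scrambled control (log2 fold change 3.34, SE 0.30, edgeR adjusted p = 4.89e-08). SOX9, a factor of crest, cartilage and testis, had 31.6, 35.1, 31.5 and 28.9 CPM in MIR9-2-5p cells and 6.63, 6.74, 6.29 and 6.24 CPM in scrambled cells (log2 fold change 2.30, SE 0.10, edgeR adjusted p = 7.11e-12). FOXD3, an early crest factor that is also expressed in pluripotent cells and whose exons overlap FOXD3-AS1, had 6.24, 8.21, 4.05 and 6.92 CPM with MIR9-2-5p, against 31.2, 17.7, 21.2 and 30.6 CPM with the scrambled control (log2 fold change -1.996, SE 0.21, edgeR adjusted p = 1.48e-06). ERBB3, a neuregulin receptor of crest and Schwann cells, had 6.04, 6.77, 6.94 and 7.11 CPM in MIR9-2-5p cells and 23.97, 25.9, 24.4 and 21.1 CPM in scrambled cells (log2 fold change -1.83, SE 0.11, edgeR adjusted p = 2.41e-10), and SOX10 had 12 counts over the MIR9-2-5p libraries and 36 over the scrambled ones.

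**Figure D2:**
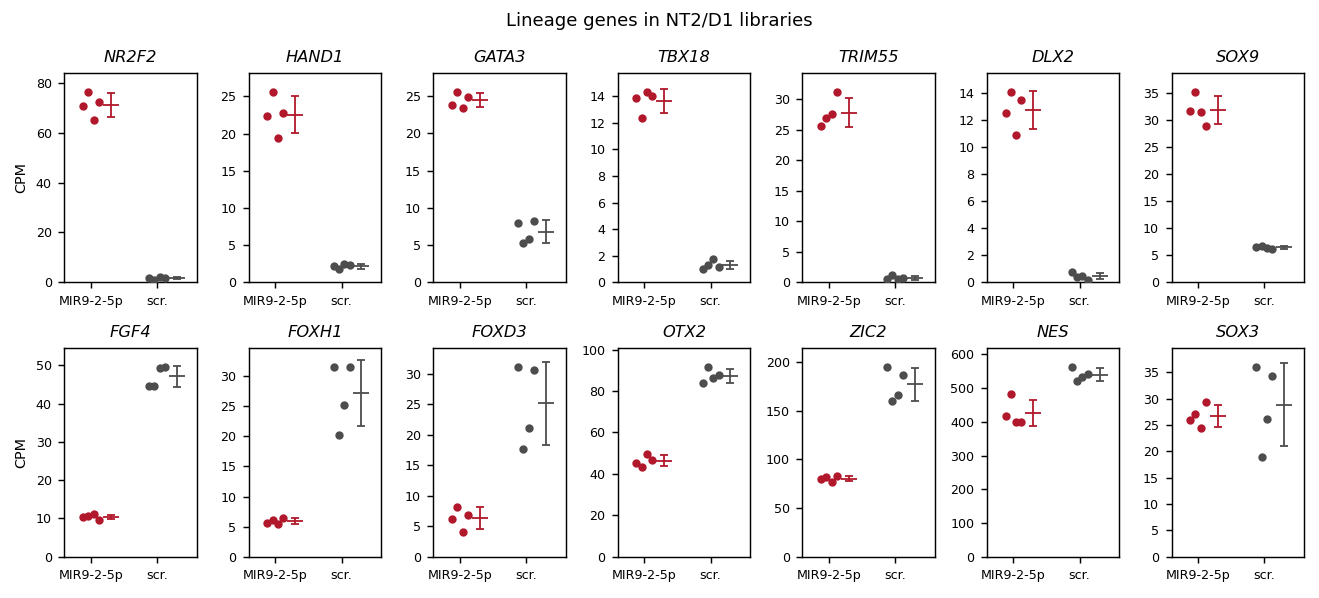
CPM (vertical axes, from 0) of 14 lineage genes in each of the 4 MIR9-2-5p (red, left) and 4 scrambled (grey, right) NT2/D1 libraries; points are libraries and bars show mean and SD. NR2F2, at 64.8 to 76.1 CPM with MIR9-2-5p, does not overlap the scrambled libraries, whereas the groups of SOX3 overlap.

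The epithelial identity genes CDH1, EPCAM and ESRP1 were lower, and the regulators of mesenchymal transition were split. In an epithelial to mesenchymal transition, cells lose E-cadherin junctions and gain a contractile, migratory form under factors of the ZEB, SNAI and TWIST families. CDH1, which encodes E-cadherin, had 4.84, 4.08, 6.36 and 4.08 CPM with MIR9-2-5p, against 17.6, 13.9, 16.3 and 16.4 CPM with the scrambled control (log2 fold change -1.72, SE 0.14, edgeR adjusted p = 2.46e-08). EPCAM, an epithelial adhesion molecule that also marks pluripotent cells, had 28.6, 27.9, 28.6 and 27.9 CPM in MIR9-2-5p cells and 107.2, 106.6, 111.5 and 116.2 CPM in scrambled cells (log2 fold change -1.96, SE 0.07, edgeR adjusted p = 7.04e-13). ESRP1, the splicing regulator of epithelial isoforms, had 2.69, 2.81, 3.20 and 2.42 CPM with MIR9-2-5p, against 17.8, 21.97, 19.2 and 18.3 CPM with the scrambled control (log2 fold change -2.79, SE 0.13, edgeR adjusted p = 1.41e-11). None of the 3 genes overlapped between groups. VIM, the mesenchymal intermediate filament vimentin, had 846.5, 696.7, 890.7 and 889.2 CPM in MIR9-2-5p cells and 225.6, 245.6, 266.02 and 270.6 CPM in scrambled cells (log2 fold change 1.72, SE 0.09, edgeR adjusted p = 3.06e-11). CDH2, which encodes N-cadherin, had 76.9, 78.2, 83.6 and 78.6 CPM with MIR9-2-5p, against 52.4, 55.6, 49.4 and 51.8 CPM with the scrambled control (log2 fold change 0.60, SE 0.07, edgeR adjusted p = 1.65e-06). The receptor tyrosine kinase AXL had 221.01, 215.5, 218.6 and 209.02 CPM in MIR9-2-5p cells and 27.1, 26.3, 24.2 and 26.98 CPM in scrambled cells (log2 fold change 3.05, SE 0.07, edgeR adjusted p = 1.04e-14). The transition factors themselves differed from each other. ZEB2 had 110.5, 105.5, 121.1 and 104.4 CPM with MIR9-2-5p, against 29.1, 29.5, 26.3 and 28.9 CPM with the scrambled control (log2 fold change 1.96, SE 0.08, edgeR adjusted p = 2.52e-12) and SNAI2 had 15.9, 13.8, 16.7 and 14.1 CPM in MIR9-2-5p cells and 6.16, 4.74, 6.57 and 5.65 CPM in scrambled cells (log2 fold change 1.38, SE 0.13, edgeR adjusted p = 7e-08), whereas SNAI1 had 4.34, 5.56, 5.25 and 6.68 CPM with MIR9-2-5p, against 10.8, 7.99, 10.1 and 7.49 CPM with the scrambled control (log2 fold change -0.74, SE 0.16, edgeR adjusted p = 0.000755). ZEB1, at 18.2, 15.8, 16.7 and 18.2 CPM in MIR9-2-5p cells and 14.2, 18.2, 15.1 and 10.6 CPM in scrambled cells, was not called (log2 fold change 0.25, SE 0.13, edgeR adjusted p = 0.117), but passed without scrambled replicate 2 (0.37, adjusted p = 0.0128). Over the list of 29 mesenchymal transition genes, which holds epithelial genes too, 14 were higher and 11 were lower.

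Tight junction genes were the adhesion list with the lowest median, -0.35, with 18 lower and 6 higher of 28 tested. Tight junctions seal epithelia through claudins, occludin and their scaffolds. MARVELD2, which encodes tricellulin, had 7.93, 8.70, 7.92 and 6.31 CPM with MIR9-2-5p, against 19.99, 24.02, 22.05 and 21.1 CPM with the scrambled control (log2 fold change -1.498, SE 0.11, edgeR adjusted p = 7.61e-09). Most of the other falls were smaller, and past a fold of 1.5 there were 6 lower and 2 higher genes. CLDN6, an oncofetal claudin of pluripotent cells whose exons overlap TNFRSF12A on the opposite strand, had 338.4, 377.03, 328.6 and 363.5 CPM in MIR9-2-5p cells and 445.7, 363.99, 409.5 and 458.9 CPM in scrambled cells (log2 fold change -0.25, SE 0.08, edgeR adjusted p = 0.00946), with overlapping groups. In contrast, CLDN4 had 13.4, 13.99, 13.3 and 11.4 CPM with MIR9-2-5p, against 1.67, 1.06, 0.985 and 0.869 CPM with the scrambled control (log2 fold change 3.51, SE 0.18, edgeR adjusted p = 4.43e-11) and CLDN1 had 14.4, 10.4, 13.5 and 13.9 CPM in MIR9-2-5p cells and 2.36, 4.93, 3.89 and 4.13 CPM in scrambled cells (log2 fold change 1.77, SE 0.18, edgeR adjusted p = 1.9e-07). Desmosome and gap junction genes were mixed, with 5 higher and 6 lower of 11, and without MIR9-2-5p replicate 4 only 3 were higher. The plakophilin PKP2 had 154.3, 152.4, 160.05 and 151.6 CPM with MIR9-2-5p, against 52.5, 49.4, 55.5 and 54.9 CPM with the scrambled control (log2 fold change 1.54, SE 0.07, edgeR adjusted p = 9.09e-12), and the connexin GJC1 had 78.2, 67.5, 78.04 and 78.7 CPM in MIR9-2-5p cells and 120.9, 130.04, 124.8 and 123.03 CPM in scrambled cells (log2 fold change -0.72, SE 0.07, edgeR adjusted p = 2.05e-07). Among 21 cadherins and catenins 11 were higher and 5 were lower, and upper-quartile scaling left 7 higher. CDH13, a cadherin anchored by a lipid, had 109.7, 98.04, 106.3 and 96.9 CPM with MIR9-2-5p, against 21.4, 22.03, 20.5 and 20.7 CPM with the scrambled control (log2 fold change 2.28, SE 0.08, edgeR adjusted p = 3.57e-13). CDH9 had 1.447, 1.32, 1.20 and 2.18 CPM in MIR9-2-5p cells and 9.91, 11.8, 10.5 and 8.42 CPM in scrambled cells (log2 fold change -2.71, SE 0.19, edgeR adjusted p = 2.19e-09).

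Enzymes that crosslink or cut the matrix were higher in 25 of 33 tested and lower in 2, with a median of 1.00. This was the adhesion list with the highest median. LOX, the lysyl oxidase that crosslinks collagen and elastin, had 125.1, 120.96, 145.8 and 129.8 CPM with MIR9-2-5p, against 19.1, 20.6, 20.1 and 18.5 CPM with the scrambled control (log2 fold change 2.73, SE 0.08, edgeR adjusted p = 1.12e-13). ADAM12, a membrane metalloprotease, had 10.2, 8.65, 7.65 and 8.49 CPM in MIR9-2-5p cells and 0.691, 1.248, 0.469 and 0.597 CPM in scrambled cells (log2 fold change 3.57, SE 0.23, edgeR adjusted p = 7.71e-10). The list moved in both its arms, since the inhibitors TIMP2 and TIMP3 also had positive log2 fold changes, of 2.24 and 2.59, and were called, as were the urokinase receptor PLAUR at 2.33 and MMP9 at 2.58, all named after their values were seen. TIMP4 was lower, with 21.4, 18.6, 20.2 and 23.8 CPM with MIR9-2-5p, against 52.7, 47.99, 55.1 and 52.99 CPM with the scrambled control (log2 fold change -1.31, SE 0.09, edgeR adjusted p = 2.08e-09).

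Matrix components moved less evenly. Of 38 glycoproteins and proteoglycans 21 were higher and 12 were lower. BGN, the proteoglycan biglycan of cartilage and bone, had 30.4, 30.6, 30.5 and 30.7 CPM in MIR9-2-5p cells and 1.96, 1.06, 1.83 and 2.61 CPM in scrambled cells (log2 fold change 4.02, SE 0.16, edgeR adjusted p = 1.76e-12). TNC, which encodes the anti-adhesive tenascin C, had 166.1, 164.9, 158.6 and 145.6 CPM with MIR9-2-5p, against 502.3, 403.1, 431.1 and 395.5 CPM with the scrambled control (log2 fold change -1.447, SE 0.08, edgeR adjusted p = 1.36e-10). FN1, which encodes fibronectin, had 644.4, 623.1, 637.9 and 585.7 CPM in MIR9-2-5p cells and 412.4, 392.3, 379.9 and 335.3 CPM in scrambled cells (log2 fold change 0.71, SE 0.07, edgeR adjusted p = 1.74e-07). Of 29 collagen genes 14 were higher and 8 were lower. COL2A1, the main collagen of cartilage, had 107.6, 120.02, 97.7 and 103.3 CPM with MIR9-2-5p, against 10.2, 7.11, 9.29 and 7.49 CPM with the scrambled control (log2 fold change 3.65, SE 0.11, edgeR adjusted p = 1.27e-13). COL1A1, the main collagen of bone and connective tissue, had 369.6, 407.6, 327.3 and 343.7 CPM in MIR9-2-5p cells and 158.7, 109.3, 123.2 and 138.1 CPM in scrambled cells (log2 fold change 1.452, SE 0.10, edgeR adjusted p = 2.9e-09). Both fibrillar collagens were higher in all MIR9-2-5p libraries, and so was the basement membrane collagen COL4A1 (log2 fold change 0.66). Basement membrane genes had 11 higher and 6 lower of 23. LAMA1, the laminin chain of the early embryo, had 125.8, 121.3, 118.05 and 108.7 CPM with MIR9-2-5p, against 80.1, 81.7, 74.4 and 69.4 CPM with the scrambled control (log2 fold change 0.63, SE 0.08, edgeR adjusted p = 1.9e-06), LAMB3 had a log2 fold change of 2.41, and LAMC3 and NID2 had -1.69 and -1.31. Exons of NID2 overlap the more abundant RTRAF on the opposite strand.

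Receptors for the matrix followed. Integrins pair an alpha with a beta subunit and link the matrix to actin through focal adhesions. Of 16 integrin subunits 9 were higher and 1 was lower (median 0.50). ITGA5, the alpha subunit of the fibronectin receptor, had 265.7, 284.3, 263.2 and 260.4 CPM with MIR9-2-5p, against 82.96, 63.4, 72.4 and 73.9 CPM with the scrambled control (log2 fold change 1.87, SE 0.08, edgeR adjusted p = 5.4e-12). ITGA3, a laminin receptor subunit, had 178.7, 198.2, 164.8 and 171.9 CPM in MIR9-2-5p cells and 36.3, 24.5, 28.99 and 33.3 CPM in scrambled cells (log2 fold change 2.53, SE 0.11, edgeR adjusted p = 4.05e-12). ITGB1, the beta subunit that both use, had 576.8, 548.8, 603.5 and 572.5 CPM with MIR9-2-5p, against 393.8, 429.8, 411.3 and 379.9 CPM with the scrambled control (log2 fold change 0.51, SE 0.06, edgeR adjusted p = 2.48e-06). The lower subunit was ITGA6, another laminin receptor chain that marks pluripotent cells, with 92.1, 81.1, 96.1 and 87.2 CPM in MIR9-2-5p cells and 133.6, 142.3, 145.04 and 131.9 CPM in scrambled cells (log2 fold change -0.63, SE 0.07, edgeR adjusted p = 1.15e-06). With upper-quartile scaling 3 subunits were lower, and without replicate 2 of either group 2 were. Focal adhesion proteins were higher in 19 of 32 and lower in 2. CAV1, the coat protein of caveolae, had 369.6, 335.5, 388.4 and 381.2 CPM with MIR9-2-5p, against 25.9, 28.5, 27.6 and 26.98 CPM with the scrambled control (log2 fold change 3.76, SE 0.08, edgeR adjusted p = 2.31e-15), and its 4 MIR9-2-5p libraries were all above 300 CPM while the scrambled ones were all under 30. NEDD9, a scaffold of integrin signalling, had 20.6, 19.2, 20.5 and 17.8 CPM in MIR9-2-5p cells and 2.59, 1.68, 2.72 and 1.90 CPM in scrambled cells (log2 fold change 3.12, SE 0.15, edgeR adjusted p = 1.56e-11). VCL, which encodes vinculin and overlaps AP3M1 on the opposite strand, went the other way, with 172.5, 172.9, 176.8 and 169.2 CPM with MIR9-2-5p, against 236.2, 220.2, 222.5 and 193.4 CPM with the scrambled control (log2 fold change -0.34, SE 0.07, edgeR adjusted p = 0.000557).

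The actin cytoskeleton genes had few falls. Of 33 smooth muscle and contractile genes 23 were higher and 3 were lower (median 0.56). Myosin light chain kinase, MYLK, which starts smooth muscle contraction, had 139.6, 148.6, 134.3 and 133.7 CPM with MIR9-2-5p, against 38.02, 33.3, 35.98 and 30.02 CPM with the scrambled control (log2 fold change 2.02, SE 0.08, edgeR adjusted p = 3.33e-12). TAGLN, an actin-binding marker of smooth muscle whose exons overlap PCSK7, had 160.5, 195.9, 157.1 and 166.7 CPM in MIR9-2-5p cells and 47.8, 36.9, 45.5 and 44.2 CPM in scrambled cells (log2 fold change 1.96, SE 0.09, edgeR adjusted p = 1.89e-11). ACTA2, smooth muscle actin, which overlaps FAS, had 15.5, 16.5, 14.8 and 19.4 CPM with MIR9-2-5p, against 2.19, 1.68, 2.49 and 2.06 CPM with the scrambled control (log2 fold change 2.96, SE 0.15, edgeR adjusted p = 3.65e-11). The 2 cytoplasmic actins ACTB and ACTG1 each had a log2 fold change of 0.04 and were not called, so the differences lay in regulators and tissue forms and not in the main actins. The lower members were SYNPO2, MYH14 and MYH10. MYH10, a non-muscle myosin II heavy chain, had 308.6, 304.6, 297.98 and 269.9 CPM in MIR9-2-5p cells and 394.7, 361.7, 356.2 and 351.003 CPM in scrambled cells (log2 fold change -0.31, SE 0.07, edgeR adjusted p = 0.000765). Its relative MYH9 was higher, at a log2 fold change of 0.90. Actin assembly genes were higher in 20 of 38 and lower in 6. TMSB10, which binds actin monomers, had 1053, 1366, 975.8 and 1098 CPM with MIR9-2-5p, against 387.3, 329.4, 389.4 and 467.8 CPM with the scrambled control (log2 fold change 1.51, SE 0.11, edgeR adjusted p = 1.45e-08). CFL2, the muscle cofilin, had 74.3, 75.2, 90.6 and 88.1 CPM in MIR9-2-5p cells and 22.4, 26.2, 24.5 and 21.6 CPM in scrambled cells (log2 fold change 1.79, SE 0.09, edgeR adjusted p = 5.85e-11).

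Intermediate filament genes had 10 higher and 6 lower of 20. KRT19, a keratin of simple epithelia, had 135.7, 154.3, 125.8 and 135.02 CPM in MIR9-2-5p cells and 26.4, 16.7, 26.6 and 28.9 CPM in scrambled cells (log2 fold change 2.48, SE 0.13, edgeR adjusted p = 1.39e-10), so that a keratin rose beside vimentin. LMNB1, a lamin of the nuclear envelope, had 162.98, 165.8, 162.2 and 155.3 CPM with MIR9-2-5p, against 216.9, 206.7, 206.9 and 209.8 CPM with the scrambled control (log2 fold change -0.38, SE 0.06, edgeR adjusted p = 5.04e-05). Tubulins and microtubule proteins had 21 higher and 5 lower of 34. MAP1A, which binds microtubules in neurons, had 132.7, 138.4, 132.2 and 114.6 CPM in MIR9-2-5p cells and 41.1, 30.7, 38.6 and 32.5 CPM in scrambled cells (log2 fold change 1.86, SE 0.10, edgeR adjusted p = 5.91e-11). MAP7, which recruits kinesin-1 in epithelia, had 2.45, 2.92, 2.31 and 2.09 CPM with MIR9-2-5p, against 8.47, 9.67, 9.99 and 10.2 CPM with the scrambled control (log2 fold change -1.98, SE 0.15, edgeR adjusted p = 6.15e-09).

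**Figure D3:**
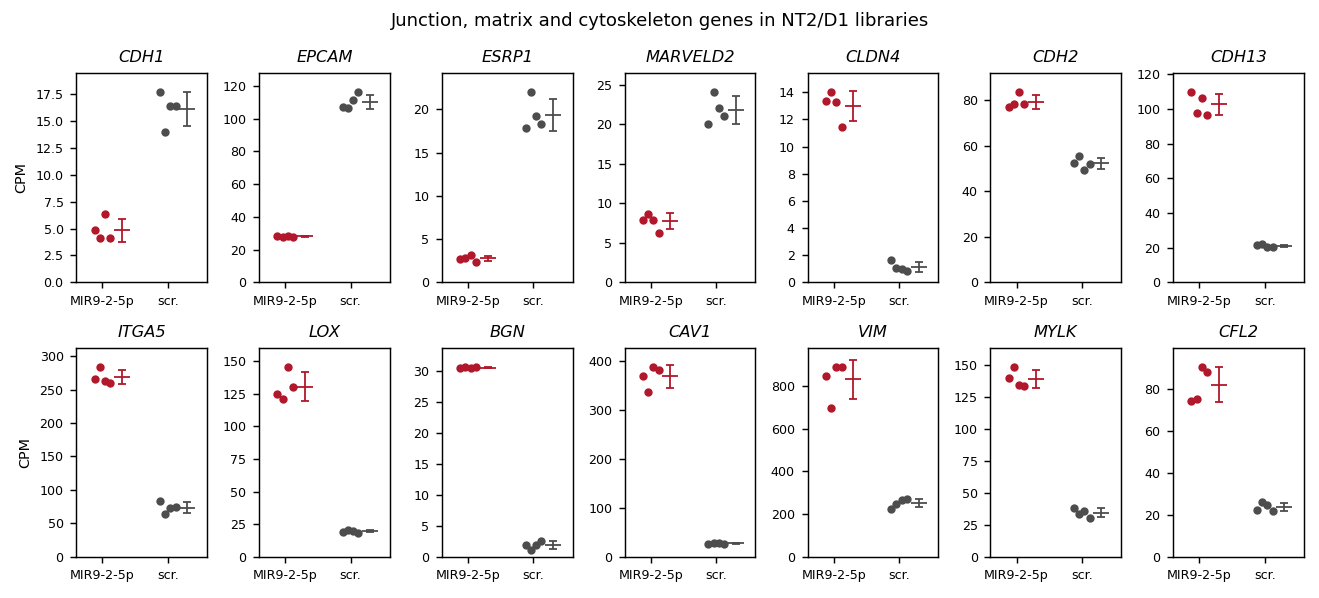
CPM (vertical axes, from 0) of 14 junction, matrix and cytoskeleton genes in each of the 4 MIR9-2-5p (red, left) and 4 scrambled (grey, right) NT2/D1 libraries; points are libraries and bars show mean and SD. CDH1, EPCAM, ESRP1 and MARVELD2 are lower and the other 10 genes are higher with MIR9-2-5p. No libraries overlap, a condition of the rule that named most of these genes.

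Signalling lists differed in direction. The cytokine, NF-kB and JAK-STAT list was higher in 27 of 36 tested and lower in 4, with a median of 0.98, the highest among them. NF-kB is a transcription factor of inflammation that also switches on its own inhibitors, and cytokines of the IL6 family act through the shared receptor IL6ST. CXCL1, a neutrophil chemokine, had 9.88, 10.4, 11.5 and 12.04 CPM with MIR9-2-5p, against 0.749, 0.437, 0.469 and 0.706 CPM with the scrambled control (log2 fold change 4.21, SE 0.19, edgeR adjusted p = 1.17e-11). IL11, a cytokine of the IL6 family, had 21.01, 20.5, 18.2 and 18.5 CPM in MIR9-2-5p cells and 2.88, 3.62, 2.02 and 4.07 CPM in scrambled cells (log2 fold change 2.65, SE 0.16, edgeR adjusted p = 4.47e-10). Both the receptor and the inhibitor side were included, with log2 fold changes of 2.58 for IL6ST, 2.21 for OSMR, 2.10 for TNFAIP3 and 1.08 for NFKBIA, named after their values were seen. The inhibitors did not share a direction, since SOCS2 was lower (log2 fold change -0.55, SE 0.08, edgeR adjusted p = 8.91e-06). CXCL12, a chemokine that guides germ cells and stem cells, was lower, with 23.9, 25.7, 26.7 and 27.3 CPM with MIR9-2-5p, against 77.4, 67.4, 71.02 and 73.2 CPM with the scrambled control (log2 fold change -1.48, SE 0.08, edgeR adjusted p = 8.39e-11). STAT3 had 78.3, 81.9, 80.1 and 75.3 CPM in MIR9-2-5p cells and 93.1, 91.4, 91.1 and 79.5 CPM in scrambled cells and was not called in this test (log2 fold change -0.17, SE 0.07, edgeR adjusted p = 0.0543). It was called under 6 alternative settings, the one without scrambled replicate 4 among them, with log2 fold changes of -0.24 to -0.17.

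AP-1 and immediate early genes had 11 higher and 4 lower of 18 (median 0.71). AP-1 is a dimer of JUN and FOS family proteins that responds to growth factors and stress. FOSL2 had 124.3, 143.8, 126.7 and 127.95 CPM with MIR9-2-5p, against 22.6, 19.2, 16.8 and 19.7 CPM with the scrambled control (log2 fold change 2.74, SE 0.09, edgeR adjusted p = 3.57e-13). JUNB, which overlaps HOOK2 on the opposite strand, had 20.9, 25.9, 16.7 and 19.5 CPM in MIR9-2-5p cells and 2.65, 1.12, 1.83 and 4.13 CPM in scrambled cells (log2 fold change 3.08, SE 0.25, edgeR adjusted p = 8.5e-08). JUN had 195.9, 251.8, 186.6 and 189.7 CPM with MIR9-2-5p, against 112.9, 78.7, 92.8 and 112.4 CPM with the scrambled control (log2 fold change 1.05, SE 0.12, edgeR adjusted p = 1.5e-06). EGR1 and KLF4 were the lower ones under the naming rule, and EGR1 had 1.996, 2.26, 1.91 and 2.23 CPM in MIR9-2-5p cells and 7.55, 4.99, 6.004 and 6.19 CPM in scrambled cells (log2 fold change -1.56, SE 0.17, edgeR adjusted p = 7.55e-07). The YAP and TEAD list, which stands for the Hippo pathway and its targets, had 22 higher and 3 lower of 31 (median 0.44). MYOF, a ferlin of membrane repair, had 229.2, 227.98, 227.6 and 214.5 CPM with MIR9-2-5p, against 21.5, 23.2, 23.5 and 20.1 CPM with the scrambled control (log2 fold change 3.35, SE 0.08, edgeR adjusted p = 9.13e-15). NT5E, which makes extracellular adenosine and is known as CD73, had 31.3, 29.9, 33.5 and 32.1 CPM in MIR9-2-5p cells and 1.73, 1.997, 1.59 and 1.74 CPM in scrambled cells (log2 fold change 4.17, SE 0.12, edgeR adjusted p = 4.81e-14). The matricellular targets CCN1 and CCN2 had log2 fold changes of 1.36 and 1.29, while YAP1 itself had 191.2, 184.6, 205.7 and 193.5 CPM with MIR9-2-5p, against 171.05, 195.004, 189.7 and 167.9 CPM with the scrambled control, with overlapping groups and no call (log2 fold change 0.10, SE 0.07, edgeR adjusted p = 0.239). YAP protein was not measured.

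The FGF and MAP kinase list had the lowest median of the signalling lists, -0.37, with 12 higher and 18 lower of 33. FGF signalling sustains human pluripotent cells and is damped by the SPRY and DUSP genes that it switches on. The ligands FGF19 and FGF4 fell as given above. FGFR4, the main receptor of FGF19, had 10.8, 13.1, 8.81 and 11.5 CPM with MIR9-2-5p, against 62.7, 43.2, 45.9 and 63.3 CPM with the scrambled control (log2 fold change -2.29, SE 0.14, edgeR adjusted p = 7.83e-10). SPRY4, a feedback inhibitor, had 58.9, 61.97, 60.2 and 59.9 CPM in MIR9-2-5p cells and 105.8, 95.8, 95.98 and 95.8 CPM in scrambled cells (log2 fold change -0.71, SE 0.07, edgeR adjusted p = 1.57e-07). The feedback genes did not share a direction, since the phosphatases DUSP4 and DUSP5 were higher, with 83.3, 84.6, 90.5 and 90.2 CPM with MIR9-2-5p, against 37.7, 32.5, 37.9 and 35.6 CPM with the scrambled control for DUSP5 (log2 fold change 1.28, SE 0.08, edgeR adjusted p = 3.63e-10). Other receptor tyrosine kinases and ligands had 26 higher and 12 lower of 43 (median 0.55), with AXL above among the higher ones. IGF2, a fetal growth factor, had 6.19, 6.44, 5.61 and 3.89 CPM in MIR9-2-5p cells and 1.498, 0.374, 0.563 and 0.326 CPM in scrambled cells (log2 fold change 2.997, SE 0.33, edgeR adjusted p = 7.74e-07).

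The TGF-beta and activin list had 11 higher and 14 lower of 33, with a median near 0. NODAL and activin sustain pluripotent cells through SMAD2 and SMAD3, whereas TGF-beta acts on differentiated mesenchyme through the same SMADs. TGFB2, which overlaps TGFB2-AS1, had 74.8, 77.9, 85.8 and 81.7 CPM with MIR9-2-5p, against 7.95, 8.17, 6.94 and 8.04 CPM with the scrambled control (log2 fold change 3.37, SE 0.09, edgeR adjusted p = 3.64e-14). INHBA, whose product forms activin A, had 9.53, 9.75, 8.94 and 7.68 CPM in MIR9-2-5p cells and 1.04, 1.37, 1.41 and 1.03 CPM in scrambled cells (log2 fold change 2.88, SE 0.17, edgeR adjusted p = 3.79e-10). TDGF1, the co-receptor of NODAL, had 47.1, 40.7, 47.3 and 49.2 CPM with MIR9-2-5p, against 235.98, 248.2, 257.8 and 244.4 CPM with the scrambled control (log2 fold change -2.42, SE 0.08, edgeR adjusted p = 1.32e-13). INHBE, a related ligand of liver, had 1.20, 1.05, 2.047 and 1.14 CPM in MIR9-2-5p cells and 11.6, 7.05, 7.46 and 8.90 CPM in scrambled cells (log2 fold change -2.66, SE 0.22, edgeR adjusted p = 2.54e-08). A median near 0 here therefore hid large changes of ligands and co-receptors in both directions, and NODAL itself had 36 counts over the MIR9-2-5p libraries and 33 over the scrambled ones. The BMP list had 16 higher and 6 lower of 30 (median 0.40). GDF6, a BMP ligand of joints and eye, had 15.7, 17.2, 15.8 and 14.3 CPM with MIR9-2-5p, against 2.25, 2.93, 1.74 and 2.12 CPM with the scrambled control (log2 fold change 2.81, SE 0.15, edgeR adjusted p = 7.52e-11), and BMP4 had 54.9, 60.4, 45.8 and 40.4 CPM in MIR9-2-5p cells and 33.9, 33.3, 26.2 and 29.6 CPM in scrambled cells (log2 fold change 0.71, SE 0.12, edgeR adjusted p = 6.87e-05). Targets of BMP moved in both directions. MSX1 rose as given above, and MSX2, named after its value was seen, had a log2 fold change of 1.11. ID1 had 94.8, 105.6, 83.4 and 89.2 CPM with MIR9-2-5p, against 147.8, 107.6, 133.1 and 171.6 CPM with the scrambled control (log2 fold change -0.59, SE 0.12, edgeR adjusted p = 0.000368), and ID2 had a log2 fold change of -0.59.

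The Wnt list was mixed, with 23 higher and 15 lower of 46 (median 0.26). Wnt ligands bind Frizzled receptors and act on beta-catenin and the TCF/LEF factors, and AXIN2 is a general target and feedback inhibitor. LEF1 had 15.4, 16.6, 18.8 and 13.7 CPM with MIR9-2-5p, against 2.59, 2.12, 3.71 and 2.71 CPM with the scrambled control (log2 fold change 2.52, SE 0.16, edgeR adjusted p = 7.43e-10). DKK3, a secreted protein related to the Wnt antagonists, had 131.2, 144.6, 132.7 and 133.1 CPM in MIR9-2-5p cells and 30.02, 29.6, 26.5 and 31.3 CPM in scrambled cells (log2 fold change 2.21, SE 0.08, edgeR adjusted p = 4.65e-13), and its exons overlap USP47. AXIN2 had 8.33, 9.75, 9.12 and 8.63 CPM with MIR9-2-5p, against 17.97, 18.8, 19.8 and 18.1 CPM with the scrambled control (log2 fold change -1.06, SE 0.10, edgeR adjusted p = 1.06e-07). SFRP2, a secreted modulator of Wnt, had 161.7, 155.99, 150.4 and 155.5 CPM in MIR9-2-5p cells and 532.6, 432.3, 488.6 and 548.6 CPM in scrambled cells (log2 fold change -1.68, SE 0.08, edgeR adjusted p = 1.1e-11). The ligand WNT3 was higher, as given above, and the inhibitor NKD2 was lower, with a log2 fold change of -2.21. RSPO3, an enhancer of Wnt signals that was singled out after its values were seen, had 74 counts over the MIR9-2-5p libraries and 0 over the scrambled ones, which is at least 22.1-fold higher with a floor of 3 counts over the group.

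Hedgehog signals act through the GLI factors, and GLI1 and PTCH1 are their direct targets. Of 15 tested genes 4 were higher and 6 were lower (median -0.05). GLI1 had 12.8, 14.4, 16.9 and 14.6 CPM with MIR9-2-5p, against 69.6, 58.5, 66.7 and 66.2 CPM with the scrambled control (log2 fold change -2.15, SE 0.10, edgeR adjusted p = 9.09e-12), and PTCH1 had 120.2, 125.1, 117.5 and 102.3 CPM in MIR9-2-5p cells and 223.99, 197.8, 203.03 and 188.4 CPM in scrambled cells (log2 fold change -0.81, SE 0.08, edgeR adjusted p = 1.47e-07). HHAT had the largest rise of the list under the naming rule (log2 fold change 2.35, SE 0.12, edgeR adjusted p = 5.03e-11). The inhibitor SUFU had 28.7, 32.1, 26.4 and 27.4 CPM with MIR9-2-5p, against 11.4, 11.5, 13.1 and 11.999 CPM with the scrambled control (log2 fold change 1.253, SE 0.10, edgeR adjusted p = 9.82e-09). The target genes GLI1 and PTCH1 were thus lower, and both HHAT and the inhibitor SUFU were higher. GLI3 at 86.98, 89.1, 86.8 and 81.1 CPM in MIR9-2-5p cells and 106.8, 97.03, 91.8 and 84.4 CPM in scrambled cells was not called (log2 fold change -0.14, SE 0.08, edgeR adjusted p = 0.129), but passed without scrambled replicate 4 (-0.20, adjusted p = 0.0415). Notch genes had 11 higher and 7 lower of 26 (median 0.14). The receptor NOTCH2 had 420.7, 392.2, 423.9 and 390.1 CPM with MIR9-2-5p, against 192.4, 184.02, 168.5 and 144.3 CPM with the scrambled control (log2 fold change 1.24, SE 0.08, edgeR adjusted p = 1.3e-09), and the ligand JAG1 had 186.6, 188.98, 188.04 and 194.7 CPM in MIR9-2-5p cells and 114.1, 112.5, 114.3 and 111.4 CPM in scrambled cells (log2 fold change 0.75, SE 0.06, edgeR adjusted p = 1.97e-08). The effectors went separate ways, with 22.1, 25.6, 18.2 and 22.04 CPM with MIR9-2-5p, against 3.98, 2.68, 2.86 and 4.61 CPM with the scrambled control for HES4 (log2 fold change 2.63, SE 0.16, edgeR adjusted p = 4.33e-10) and 2.64, 2.48, 2.49 and 3.22 CPM in MIR9-2-5p cells and 12.9, 11.2, 11.8 and 10.8 CPM in scrambled cells for HEY2 (log2 fold change -2.10, SE 0.14, edgeR adjusted p = 1.2e-09). NOTCH1 had a log2 fold change of 0.10 and was not called.

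Guidance molecules, which steer axons and migrating cells, had 25 higher and 16 lower of 54 (median 0.14). SEMA3C, a secreted semaphorin of heart outflow and neural crest, had 20.1, 23.4, 23.8 and 24.3 CPM with MIR9-2-5p, against 1.04, 0.936, 1.31 and 1.41 CPM with the scrambled control (log2 fold change 4.26, SE 0.15, edgeR adjusted p = 4.21e-13). EPHA1, an ephrin receptor of epithelia that overlaps ZYX on the opposite strand, had 67.7, 72.3, 65.3 and 62.6 CPM in MIR9-2-5p cells and 324.8, 249.2, 262.6 and 294.6 CPM in scrambled cells (log2 fold change -2.08, SE 0.09, edgeR adjusted p = 3.91e-12). Neural adhesion genes were higher in 17 of 31 and lower in 8 (median 0.53). CADM3, a synaptic adhesion molecule, had 47.9, 46.4, 43.7 and 46.4 CPM with MIR9-2-5p, against 7.43, 6.61, 5.96 and 5.76 CPM with the scrambled control (log2 fold change 2.84, SE 0.10, edgeR adjusted p = 5.3e-13). The retinoic acid list had 9 higher and 11 lower of 25 (median -0.01). TGM2, a transglutaminase induced by retinoic acid in many cells, had 23.5, 25.2, 21.5 and 22.99 CPM in MIR9-2-5p cells and 3.46, 3.81, 2.39 and 2.61 CPM in scrambled cells (log2 fold change 2.94, SE 0.14, edgeR adjusted p = 1.73e-11). Exons of TGM2 overlap RPRD1B on the opposite strand. CYP26A1, which breaks down retinoic acid and is switched on by it, had 0.0998, 0.110, 0.311 and 0.664 CPM with MIR9-2-5p, against 3.40, 2.93, 2.39 and 2.93 CPM with the scrambled control (log2 fold change -3.23, SE 0.39, edgeR adjusted p = 2.05e-06). These retinoid genes thus moved apart. The list of G protein and calcium genes had 22 higher and 9 lower of 45 (median 0.16), and the adhesion receptor ADGRG1 had 29.1, 25.9, 25.5 and 25.9 CPM in MIR9-2-5p cells and 3.23, 2.25, 2.39 and 2.44 CPM in scrambled cells (log2 fold change 3.37, SE 0.13, edgeR adjusted p = 1.08e-12).

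**Figure D4:**
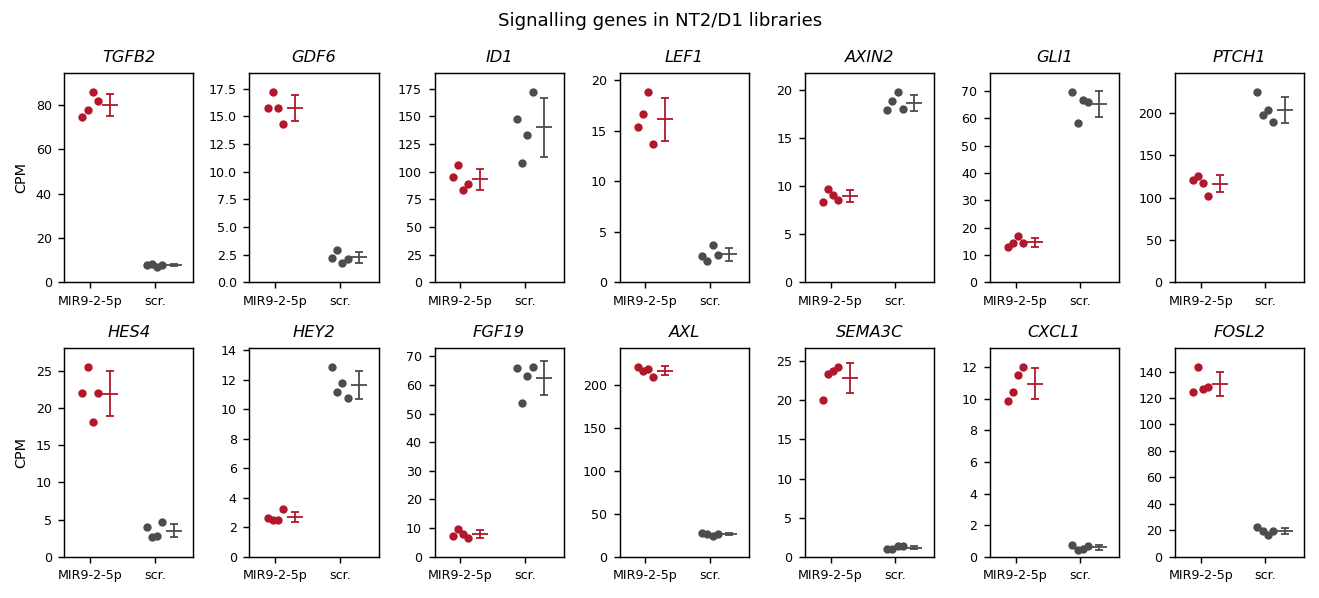
CPM (vertical axes, from 0) of 14 signalling genes in each of the 4 MIR9-2-5p (red, left) and 4 scrambled (grey, right) NT2/D1 libraries; points are libraries and bars show mean and SD. TGFB2, GDF6, LEF1, HES4, AXL, SEMA3C, CXCL1 and FOSL2 are higher and ID1, AXIN2, GLI1, PTCH1, HEY2 and FGF19 are lower with MIR9-2-5p.

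Over all 14239 genes with a 3′ UTR 25.7% had an 8mer or a 7mer. Of these 3660 genes 1156 were lower and 1281 were higher. The shares were 48.4% of 31 YAP and TEAD genes, none of them lower and 11 of them higher among those with a site, and 39.3% of 28 tight junction genes, with 7 lower and 2 higher. With or without a site, 22 YAP and TEAD genes were higher and 3 lower, and 6 tight junction genes were higher and 18 lower. Of 27 mesoderm and mesenchyme regulators 33.3% had a site, with 1 lower and 7 higher. Shares of the other programme lists ran from 11.1% of 18 neural progenitor genes to 44.8% of 29 mesenchymal transition genes. Genes with a site were therefore found on both sides. The share depends on 3′ UTR length, and its part in these shares was not tested.

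The response was set against that of TCam-2 cells to see which programmes were shared. The difference of the responses, tested as an interaction over all 16 libraries with edgeR, was past the threshold for 10414 of 19576 genes (53.2%). Each list median below is over the members tested in that line, so medians of the lines can rest on different genes. Of the 27 mesoderm and mesenchyme regulators 19 differed in this test, and their NT2/D1 median of 2.38 stood beside 0.09 over the 26 tested in TCam-2. Of the 13 trophoblast and amnion genes 10 differed, with an NT2/D1 median of 1.37 beside -0.79 over the 20 tested in TCam-2. Of the 33 contractile actin genes 27 differed, with an NT2/D1 median of 0.56 beside -0.83 for TCam-2, where 0 of 31 tested were higher and 25 were lower. Focal adhesion genes differed in 29 of 32, with medians of 0.42 and -0.41 in the same order. The medians had opposite signs in 24 of the 38 lists, while those of the YAP and TEAD list (0.44 for NT2/D1 and 0.19 for TCam-2) and the integrins (0.50 and 0.21) had the same sign. Of the 31 YAP and TEAD genes 24 nevertheless differed between lines. Of the 16 integrins 6 differed, a smaller share than the 53.2% of all genes. Tight junction genes had a median of -0.35 in NT2/D1 beside -0.21 in TCam-2, and 14 of 28 differed, close to the share of all genes.

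Among the 16 genes with the largest rises and falls, 12 differed between the lines. Of these 12, TRIM63, FSTL5, RAB27B, FGF19 and GLB1L3 were under the low-count filter in TCam-2, so the sizes of their differences rest on few TCam-2 counts. NR2F2 had a difference of log2 fold changes, NT2/D1 minus TCam-2, of 6.14 with edgeR adjusted p = 8.91e-20. VIM, with a log2 fold change of 1.72 in NT2/D1, had -2.23 in TCam-2, and the difference was 3.97 with edgeR adjusted p = 2.24e-18. CAV1 had 3.76 in NT2/D1, against -0.44 in TCam-2 where it was not called, with a difference of 4.22 with edgeR adjusted p = 2.67e-16. NR2F2 and VIM were thus higher in NT2/D1 and lower in TCam-2. In contrast, EPCAM fell in both lines, with -1.96 in NT2/D1, against -0.90 in TCam-2, and CDH2 was higher in both, with 0.60 in NT2/D1, against 1.47 in TCam-2, although the sizes differed (-1.04 with edgeR adjusted p = 4.42e-11 for EPCAM and -0.85 with edgeR adjusted p = 5.31e-09 for CDH2). SNAI2 had 1.38 in NT2/D1, against 1.85 in TCam-2, and no difference between the lines was called (-0.45 with edgeR adjusted p = 0.151). The difference of RAB27B, 5.45 with edgeR adjusted p = 0.00377, was lost without scrambled replicate 2 of TCam-2 (2.53, adjusted p = 0.84), and that of FGF19, -4.08 with edgeR adjusted p = 0.0075, without MIR9-2-5p replicate 4 of TCam-2 (-2.03, adjusted p = 0.498). That of GLB1L3, -3.77 with edgeR adjusted p = 0.0189, was lost when MIR9-2-5p replicate 1, 3 or 4 of TCam-2 was left out (adjusted p = 0.0555, 0.0636 and 0.0592).

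**Figure D5:**
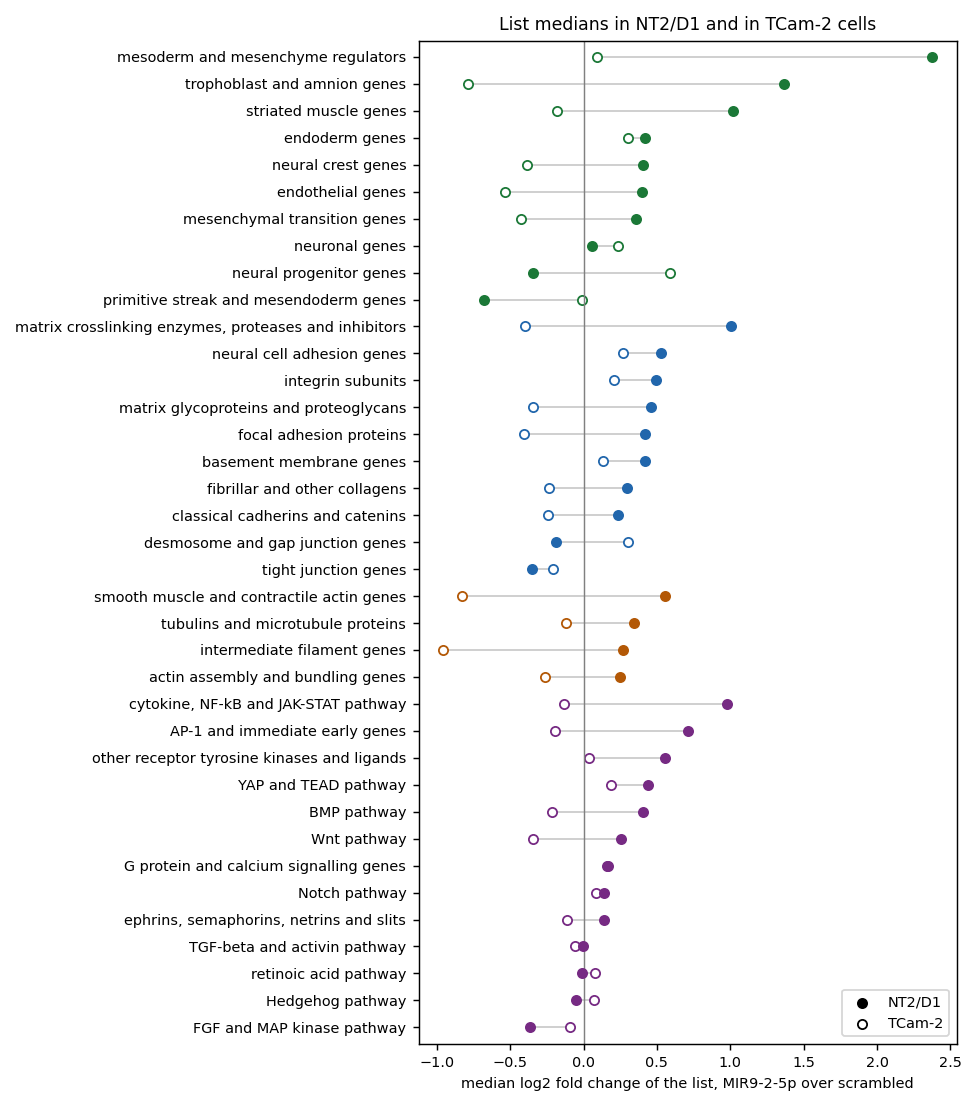
Median log2 fold change of MIR9-2-5p over scrambled for each of 37 lists (rows, coloured by kind of programme as lineage, adhesion, cytoskeleton and signalling from top to bottom) in NT2/D1 (filled circles) and TCam-2 (open circles). The contractile actin genes have medians of 0.56 for NT2/D1 and -0.83 for TCam-2, and the tight junction genes have -0.35 and -0.21. Each median is over the members tested in that line.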

How the data were processed

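RNA was sequenced from NT2/D1 and TCam-2 cells, with 4 libraries for each line and mimic. The table that the authors deposited holds raw read counts for each gene in every library. Per the submitters' processing notes the tools were STAR and featureCounts, beside FastQC, cutadapt and Trim Galore, with GRCh38 as the genome, while neither the release of the annotation nor the strand option was found in these sources. For that reason reads of antisense partners cannot be separated with certainty. Overlaps of exons are given above for only some of the named genes that have them. Of 58735 gene IDs 58207 matched GENCODE release 44, which gave symbols, biotypes, exons and 3′ UTRs (the longest among protein-coding transcripts). The restriction to protein-coding transcripts was made after first results of the site classes had been seen.

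edgeR 4.0.16 in R 4.3.3 was run on the 8 NT2/D1 libraries with TMM scaling, genes kept by filterByExpr (10 as minimum count and 15 as minimum total), robust quasi-likelihood dispersions, and p-values adjusted after Benjamini and Hochberg. The difference between lines was an interaction term over 16 libraries. CPM used TMM-scaled library sizes. Same-numbered libraries of the 2 groups did not deviate together (correlations of -0.26 to 0.07), so no block was used. The study describes biological replicates. On simulated counts of 17241 NT2/D1 genes, 14, 45, 49 and 50 of 50 changed genes were recovered at folds of 1.25, 1.5, 2 and 4, and 14 of 172 calls were false (8.14%). For the difference between lines 1, 27, 44 and 50 of 50 were recovered at these folds, and 5 of 127 calls were false (3.94%). The changed genes averaged 50 counts or more and were few, whereas 59.3% of genes were called in the data. These rates therefore do not carry over to genes with fewer counts or to the share of false calls in the data.

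The members and all lists were chosen with earlier results of these data known, and 4 of 42 lists are marker checks. Named genes were the 8 largest rises and falls of protein-coding genes that were called, averaged 50 counts or more and did not overlap between groups, the 2 largest rises and falls of each list by the same conditions, a set of regulators and markers named whatever their values, and the 10 largest falls with an 8mer. Alternatives were RLE and upper-quartile scaling, no filter, genes averaging 100 counts or more, 1 fit of all libraries, a replicate block, DESeq2 1.42.0, a minimum fold of 1.5, only protein-coding genes, other site definitions and each library left out. Python 3.11.15 was also used. The results of 1 list and 1 gene are not reported here, though they are kept in the tests and tallies.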

Additional observations from a re-analysis of the deposited data

Results flagged for a closer look

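Of 410 sets of 4 libraries checked, over 205 named genes, 22 had 1 library far from the other 3 by Dixon's test at the 95% level, which chance alone gives in about 1 of 20 sets. MIR9-2-5p replicate 1 was the one that stood apart for ADGRG1 at 29.1 CPM and KDR at 8.33 CPM. MIR9-2-5p replicate 2 was the one that stood apart for CADM4 at 91.2 CPM, DKK3 at 145 CPM, GJC1 at 67.5 CPM, JUN at 252 CPM and KRT80 at 12.7 CPM. MIR9-2-5p replicate 3 was the one that stood apart for ESAM at 10.1 CPM, INHBE at 2.047 CPM and PAK1 at 89.9 CPM. MIR9-2-5p replicate 4 was the one that stood apart for FLI1 at 32.7 CPM and MYOF at 214 CPM. Scrambled replicate 1 was the one that stood apart for CLDN11 at 5.24 CPM, SERPINE2 at 179 CPM and SPRY4 at 106 CPM. Scrambled replicate 2 was the one that stood apart for DCLK2 at 0.624 CPM, GATA6 at 1.06 CPM, TRIM55 at 1.248 CPM and TUBB3 at 1.93 CPM. Scrambled replicate 3 was the one that stood apart for CASP4 at 0.375 CPM. Scrambled replicate 4 was the one that stood apart for STAT3 at 79.5 CPM and TRIM63 at 0.38 CPM. The libraries involved were spread over both groups, with 1 to 5 such values in each. The scrambled values of CASP4 and TRIM55 and TRIM63 that stood apart were all under 1.3 CPM.

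The response differed between NT2/D1 and TCam-2 for 12 of the 16 genes with the largest changes in NT2/D1 (edgeR interaction test). The differences of log2 fold changes, NT2/D1 minus TCam-2, were 3.86 for DPF3, -4.63 for DPPA3, -4.08 for FGF19, 6.66 for FSTL5, -3.77 for GLB1L3, -3.38 for HHLA1, -1.85 for HSD11B2, 6.14 for NR2F2, 5.45 for RAB27B, 5.09 for SLC28A3, 4.94 for TRIM55 and 9.98 for TRIM63. Of these genes 5 were under the low-count filter in TCam-2, so that the sizes of their differences are imprecise and no TCam-2 response is given for them. Their counts over the TCam-2 libraries were 5 with MIR9-2-5p and 42 with scrambled mimic for TRIM63, 6 and 7 for FSTL5, 2 and 3 for RAB27B, 7 and 3 for FGF19, and 3 and 2 for GLB1L3, in the same order. The 12 genes were chosen for their change in NT2/D1, and 53.2% of all genes differed by the same test.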

How the results depend on the processing

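Against a fold minimum of 1.5, 2192 genes were higher and 1715 lower, and of the genes in the programme lists 322 were higher and 122 lower, because smaller changes are then not counted. Under every other setting the counts of higher and lower genes over all genes and over all list genes stayed within 1.5 times those reported, with 4618 higher and 5875 lower under upper-quartile scaling. Leaving out each library in turn gave 4923 to 5437 genes higher, 4711 to 5149 lower, 503 to 524 list genes higher, 233 to 262 list genes lower, and 9966 to 10482 genes with a different response in TCam-2. With the replicate number as a block, 5144 genes were higher and 4754 lower, 515 and 244 list genes were higher and lower, and 9881 genes differed between lines, and the pairing moved the call of 1 named gene, AFP (adjusted p = 0.0599). Under upper-quartile scaling the share of lower genes was 41.8% with an 8mer, 34.3% with a 7mer and 32.9% with no match. For genes with short, middle and long 3′ UTRs it was 40.7%, 39.4% and 34.7% with an 8mer, 36.5%, 33.6% and 28.1% with a 7mer, and 29.6%, 27.2% and 25.4% with no match. With the longest 3′ UTR over all annotated transcripts, the definition first planned, the share of lower genes was 35.5% of 902 with an 8mer, 29.8% of 3332 with a 7mer and 28.4% of 6717 with no match. No result for a named gene changed direction while called. Against a fold minimum of 1.5 the calls of 34 of the 205 named genes were lost, among them BMP4, CDH2, COL4A1, FN1, ID1, ID2, ITGB1, LAMA1 and SNAI1. Among genes averaging 100 counts or more, 14 counts of single programme lists moved by over 1.5 times because fewer members were tested, among them those of higher striated muscle (9), BMP (9) and retinoic acid genes (5). Medians of programme lists that turned sign were those of the endoderm and neural crest lists as given above, of the neuronal list under upper-quartile scaling (-0.02), of the desmosome and gap junction list in 1 fit of all libraries (0.05), with no filter (0.38) and with the replicate block (0.06), and of the TGF-beta, Hedgehog and retinoic acid lists, whose medians of turned sign were all under 0.1. Apart from the fold minimum, calls of AFP, DCX, F3 and MIXL1 were lost, and calls of GLI3, HES1, SOX3, STAT3, TWIST1 and ZEB1 were gained, when some single library was left out or a setting changed. Genes with few counts limit precision, as for TRIM63, CASP4 and FSTL5 in scrambled cells.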
